A study of Mus musculus with 15 samples.

Results

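AP-1 is a family of transcription factors rather than a single protein, and its 10 members listed here (*Fos*, *Fosb*, *Fosl1*, *Fosl2*, *Jun*, *Junb*, *Jund*, *Jdp2*, *Batf* and *Atf3*) were followed in mouse bone marrow derived macrophages (BMDMs). They were taken by gene symbol from a table of 20089 genes, and each of the 10 matched 1 entry. No measured value served as a rule for the choice, but earlier results of these data were known when it was made. The RNA-seq comprised 15 libraries in 5 groups of 3. All were from wild-type C57BL/6 cells grown in macrophage colony-stimulating factor (M-CSF), for 3 days by the series' design text. The methods of the study instead give 4 days of M-CSF to obtain BMDMs, in a step described for *Zmat1* wild-type and knockout mice. Control cells received M-CSF alone, RANKL 4 h and RANKL 72 h cells received M-CSF and receptor activator of NF-κB ligand, which drives macrophages to become bone-resorbing osteoclasts, and LPS 4 h and LPS 72 h cells received M-CSF and lipopolysaccharide, a bacterial cell wall component that activates macrophages. RANKL and LPS had the same concentration by mass. The series set these groups up to separate osteoclast induction from inflammatory activation. The labels give the long stimulation as 3 days, which the study calls 72 h, and give no age or sex of the mice. No group with M-CSF alone for 72 h was among the samples. Time in culture and stimulus thus cannot be told apart in any difference of a 72 h group from control. The same holds between 4 h and 72 h of a stimulus. The labels do not say whether the 3 replicates of a group are separate animals or cultures, and p-values then measure only the spread between these libraries.

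AP-1 proteins share a basic leucine zipper, which pairs 2 subunits and binds DNA. Fos proteins cannot pair with one another and need a Jun partner, whereas Jun proteins can also pair among themselves. Smaller members without a strong activation domain, such as JDP2 and BATF, compete for the same partners. In bone, loss of *Fos* blocks osteoclast formation, because FOS acts upstream of NFATc1, the main transcription factor of osteoclasts. In macrophages given LPS, AP-1 proteins act with NF-κB at cytokine genes, and ATF3 restrains part of that response.

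Expression was given as FPKM, fragments scaled to transcript length and to the mapped fragments of the library. Levels of different members can thus be set side by side, except where they may include fragments of an overlapping neighbour, as given below. The libraries held 18306184 to 20330207 fragments on listed genes. All 10 members passed the filter (a mean of at least 0.1 FPKM), with 11743 genes tested. LPS 72 h replicate 3 stood apart from its group: its pairs with the other replicates had a median chi-square of 46.3 and 31.5 times sampling noise, against 7.73 for the remaining pair. Its summed level of 8 macrophage markers was 17500 FPKM against 6090 and 7880, and of 8 stromal markers 458 FPKM against 84.5 and 78.3. Called differences from control in LPS 72 h, and those between LPS 72 h and the other stimulated groups, are given with and without it. Macrophage markers were high in every group, with a summed level of at least 6050 FPKM in each library. The sum of 6 neutrophil markers was also high, at 3410 to 10300 FPKM in control, 3150 to 8850 FPKM in RANKL 4 h and 2820 to 8680 FPKM in LPS 4 h. It exceeded the macrophage sum in control replicates 1 (10300 against 9070 FPKM) and 3 (9810 against 7360 FPKM), but not in replicate 2 (3410 against 8870 FPKM). Sums of different markers do not give shares of cells.

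In the GENCODE M21 annotation of GRCm38, 3 of the members lie next to one another on chromosome 12. *Fos* occupies 85473890 to 85477273, *Jdp2* 85599027 to 85639878 and *Batf* 85686669 to 85709087, all on the plus strand, and no other protein-coding gene lies within the 235198 bases from the start of *Fos* to the end of *Batf*. *Junb* (84974484 to 84978718, minus strand) and *Jund* (70698949 to 70700616, plus strand) share chromosome 8, and *Jun* lies on chromosome 4 (95049034 to 95052222, minus strand). *Fosb* is on chromosome 7 (19302696 to 19310051, minus strand), *Fosl1* on chromosome 19 (5447547 to 5455946, plus strand), *Fosl2* on chromosome 5 (32135801 to 32157842, plus strand) and *Atf3* on chromosome 1 (191170296 to 191218039, minus strand). Exons of *Fosl1*, *Jun*, *Junb*, *Jund* and *Jdp2* overlap exons of a neighbour on the other strand (*Ccdc85b*, *Junos*, *Prdx2*, *Gm11175* and *Gm47863*). Whether fragments were counted by strand was not given in the sources used here, so these 5 levels may include fragments of the neighbour.

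The promoter windows of the 3 neighbours on chromosome 12 and of the Jun proteins with the steepest opposite responses to LPS are shown, to set the sequences beside transcripts that moved in different directions. The windows (250 bases before to 50 after the start of transcription) are from RefSeq on GRCm38.p6, read 5′ to 3′ on the strand of the gene, at chr12:85473640-85473939 for *Fos*, chr8:84978699-84978998 for *Junb*, chr12:85686470-85686769 for *Batf*, chr12:85599166-85599465 for *Jdp2* (1 of its 3 windows) and chr4:95052173-95052472 for *Jun*. Capitals mark TGACG, the half-site bound by CREB and ATF proteins, and in *Jun* the AP-1 variant TGACATCA. Both were chosen after the windows had been seen.
Fos: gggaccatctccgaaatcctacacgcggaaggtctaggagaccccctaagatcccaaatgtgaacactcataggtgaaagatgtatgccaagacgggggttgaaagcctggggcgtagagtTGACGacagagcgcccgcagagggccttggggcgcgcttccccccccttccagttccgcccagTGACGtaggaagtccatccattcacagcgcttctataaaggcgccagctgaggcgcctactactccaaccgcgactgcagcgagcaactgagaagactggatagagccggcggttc
Junb: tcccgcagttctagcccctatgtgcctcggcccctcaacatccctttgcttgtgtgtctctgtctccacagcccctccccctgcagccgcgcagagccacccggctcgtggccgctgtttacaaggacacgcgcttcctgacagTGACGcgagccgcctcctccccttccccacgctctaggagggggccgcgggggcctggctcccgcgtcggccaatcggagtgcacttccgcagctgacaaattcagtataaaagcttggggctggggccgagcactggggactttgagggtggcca
Batf: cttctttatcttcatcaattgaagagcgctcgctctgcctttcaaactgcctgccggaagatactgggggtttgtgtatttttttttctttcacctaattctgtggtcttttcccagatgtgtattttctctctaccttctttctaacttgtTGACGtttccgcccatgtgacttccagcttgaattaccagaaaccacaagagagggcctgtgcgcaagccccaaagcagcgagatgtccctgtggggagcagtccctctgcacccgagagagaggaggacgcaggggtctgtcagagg
Jdp2: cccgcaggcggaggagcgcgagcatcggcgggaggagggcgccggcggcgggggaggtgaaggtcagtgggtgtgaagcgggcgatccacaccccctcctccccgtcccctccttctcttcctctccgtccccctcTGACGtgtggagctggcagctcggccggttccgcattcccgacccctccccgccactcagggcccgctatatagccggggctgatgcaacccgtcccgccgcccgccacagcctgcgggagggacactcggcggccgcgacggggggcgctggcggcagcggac
Jun: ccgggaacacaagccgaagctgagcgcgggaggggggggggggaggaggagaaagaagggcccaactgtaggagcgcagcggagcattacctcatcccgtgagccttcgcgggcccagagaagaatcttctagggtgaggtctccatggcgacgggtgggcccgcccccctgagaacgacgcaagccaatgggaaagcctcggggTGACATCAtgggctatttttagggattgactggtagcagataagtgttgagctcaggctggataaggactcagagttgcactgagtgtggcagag

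Windows were found for 9 of the 10 members, 11 windows in all. The *Jund* window (chr8:70697489-70697788) ends before the annotated start of the gene at 70698949, so it may not hold the promoter of the transcript measured. The motifs were searched on both strands. The half-site TGACG occurred in 6 of the 11 windows, each of a different member, and in 20.8% of 32851 mouse promoter windows. It began 129 and 66 bases before the start of *Fos*, 106 before *Junb*, 98 before *Batf* and 114 before *Jdp2*, and 60 before *Fosb*. The *Jdp2* match was in the printed window and not in its other windows. In *Atf3* it was read on the reverse strand (CGTCA), 7 bases before the start. TGACATCA began 45 bases before the start of *Jun* and occurred in 3.62% of all windows. The full AP-1 site TGANTCA (in 7.81% of all windows), the cAMP response element TGACGTCA (in 1.79%, each of which also holds the half-site) and the κB site GGANTTTCC (in 1.25%) had 0 matches in the 11 windows, which says only that these letters are not in these windows.

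The family did not respond as a block. After 4 h of LPS *Junb*, *Batf*, *Fosl2*, *Jdp2* and *Atf3* rose while *Fos* and *Jun* fell. After 72 h of RANKL *Jdp2*, *Fosl2*, *Fos* and *Junb* rose while *Atf3* and *Batf* fell, and after 4 h of RANKL no member passed the test.

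**Figure D1:**
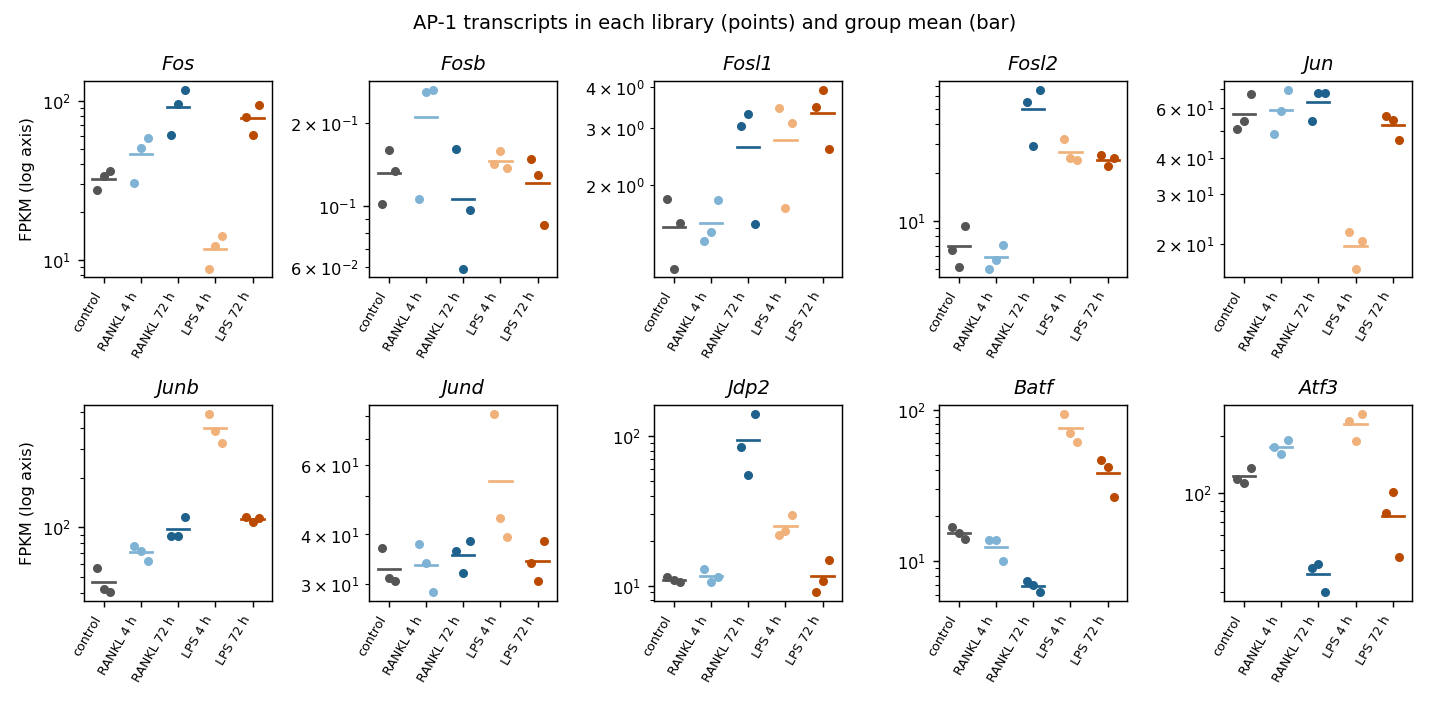
FPKM on a log axis in each library (points) for the 10 AP-1 transcripts, by group, with the group mean as a bar; each panel has its own axis range. *Fos* and *Jun* have their lowest 3 libraries in LPS 4 h, *Junb*, *Jund* and *Batf* their highest 3 there, and *Jdp2* its highest 3 in RANKL 72 h.

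Among the Fos proteins, *Fos*, whose product pairs with Jun proteins and is needed for osteoclasts, stood at 27.3, 33.6 and 36.0 FPKM without stimulus and at 30.4, 50.7 and 58.1 FPKM in RANKL 4 h. It reached 61.0, 95.7 and 117 FPKM in RANKL 72 h, 8.83, 12.2 and 14.1 FPKM in LPS 4 h and 79.4, 60.7 and 93.6 FPKM in LPS 72 h. Both 72 h groups lay above every control library and overlapped one another, whereas LPS 4 h lay below every other library. *Fos* rose 2.74-fold in RANKL 72 h (log2 difference 1.45 ± 0.28, SE, n = 3 per group, adjusted p = 0.00175 from limma). It fell by 1.48 ± 0.28 on the log2 scale in LPS 4 h (adjusted p = 0.000452). In LPS 72 h it rose by 1.25 ± 0.28 (adjusted p = 0.00333), and by 1.11 without replicate 3 (adjusted p = 0.0113).

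*Fosl2* encodes a Fos protein without the strong activation domain of FOS. It measured 6.60, 5.14 and 9.23 FPKM in M-CSF alone and 5.04, 5.73 and 7.08 FPKM in RANKL 4 h. It measured 55.6, 29.2 and 65.7 FPKM in RANKL 72 h, 32.6, 24.6 and 24 FPKM in LPS 4 h, and 25.8, 22.1 and 24.6 FPKM in LPS 72 h. All 9 libraries of the last 3 groups exceeded every control library, and every RANKL 72 h library exceeded every LPS 72 h library. *Fosl2* rose 6.89-fold in RANKL 72 h (log2 2.79 ± 0.27, adjusted p = 1.19e-05), 3.91-fold in LPS 4 h (log2 1.97 ± 0.27, adjusted p = 3.91e-05) and 3.51-fold in LPS 72 h (log2 1.81 ± 0.27, adjusted p = 0.000217; 1.80 without replicate 3). These comparisons share their control libraries. Only 0.945% of the genes tested had a higher log2 difference than *Fosl2* in RANKL 72 h.

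*Fosl1*, another Fos protein of the short kind, was scarce. It measured 1.80, 1.10 and 1.52 FPKM in M-CSF alone, 1.34, 1.43 and 1.80 FPKM in RANKL 4 h and 3.03, 3.32 and 1.51 FPKM in RANKL 72 h. In LPS it measured 3.46, 1.69 and 3.10 FPKM at 4 h and 3.47, 3.93 and 2.58 FPKM at 72 h. Its values rested on 40 to 66 fragments per control library, and 1 library of RANKL 72 h and 1 of LPS 4 h fell within the control range. *Fosl1* rose in LPS 72 h (log2 1.13 ± 0.32, adjusted p = 0.0144), a call lost without control replicate 2 (0.94, adjusted p = 0.0631) or LPS 72 h replicate 2 (1.0, adjusted p = 0.0599) and kept without LPS 72 h replicate 3 (1.29, adjusted p = 0.0101). It passed in LPS 4 h (log2 0.82 ± 0.32, adjusted p = 0.0387), but not without control replicate 2 (0.64), control replicate 3 (0.85), LPS 4 h replicate 1 (0.63) or LPS 4 h replicate 3 (0.71), where adjusted p lay between 0.067 and 0.145, nor with voom on the recovered fragments (0.84, adjusted p = 0.0651), without the filter on low values (adjusted p = 0.0594), at a pseudocount of 1 (0.58, a fold below the limit) or when only these 2 groups were fitted (adjusted p = 0.0518). Its difference of 0.74 ± 0.32 in RANKL 72 h did not pass (adjusted p = 0.0931) unless replicate 3 was left out (1.08, adjusted p = 0.0218).

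*Fosb*, an immediate-early gene in many tissues, was the scarcest member, with 5 to 22 fragments per library. Its values lay between 0.0593 and 0.264 FPKM over the 15 libraries, and the highest, 0.260 and 0.264 FPKM, were RANKL 4 h replicates 2 and 3. No comparison with control passed the test, with log2 differences between -0.19 and 0.38.

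The Jun proteins split. *Jun*, the strongest activator among them, measured 50.7, 53.8 and 67.3 FPKM in M-CSF alone, 48.6, 58.7 and 69.4 FPKM in RANKL 4 h and 53.8, 67.5 and 67.9 FPKM in RANKL 72 h. With LPS it measured 22.0, 16.4 and 20.6 FPKM at 4 h and 56.1, 54.4 and 46.4 FPKM at 72 h. LPS 4 h lay below all other libraries, and the other groups overlapped. *Jun* was 2.90-fold lower in LPS 4 h than in control (log2 -1.54 ± 0.16, adjusted p = 4.24e-06). Its differences in RANKL 4 h (0.04, 95% interval -0.31 to 0.39), RANKL 72 h (0.14, -0.21 to 0.49) and LPS 72 h (-0.12, -0.47 to 0.23) did not pass.

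*Junb*, whose product activates less strongly and can restrain JUN, measured 56.8, 42.0 and 40.3 FPKM in M-CSF alone, 76.9, 71.8 and 62.5 FPKM in RANKL 4 h and 88.4, 88.8 and 116 FPKM in RANKL 72 h. In LPS 4 h it measured 489, 381 and 323 FPKM, the highest level of any member in any group, and in LPS 72 h 115, 107 and 113 FPKM. No stimulated library overlapped control. *Junb* rose 8.54-fold in LPS 4 h (log2 3.09 ± 0.17, adjusted p = 1.39e-08), 2.11-fold in RANKL 72 h (log2 1.08 ± 0.17, adjusted p = 0.000469) and 2.43-fold in LPS 72 h (log2 1.28 ± 0.17, adjusted p = 9.93e-05; 1.27 without replicate 3). In RANKL 4 h the difference was 0.61 ± 0.17 with an unadjusted p of 0.00285, which did not pass over all genes (adjusted p = 0.331).

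*Jund*, expressed steadily in most cells, measured 36.9, 30.9 and 30.5 FPKM in M-CSF alone, 37.9, 33.8 and 28.5 FPKM in RANKL 4 h and 36.2, 31.9 and 38.6 FPKM in RANKL 72 h. It measured 81.2, 44.0 and 39.4 FPKM in LPS 4 h and 33.9, 30.5 and 38.4 FPKM in LPS 72 h. The LPS 4 h libraries were above all others, 1 of them by far. *Jund* passed in LPS 4 h (log2 0.67 ± 0.22, adjusted p = 0.0161), but not without replicate 1 (0.35, adjusted p = 0.0645) or without control replicate 3 (0.62, adjusted p = 0.0512), nor when only these 2 groups were fitted (adjusted p = 0.0613). It did not pass in the other 3 comparisons with control.

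Among the partners that lack a strong activation domain, *Jdp2* (Jun dimerization protein), a repressor at AP-1 sites that also takes part in osteoclast formation, measured 11.5, 10.9 and 10.6 FPKM in M-CSF alone and 12.9, 10.5 and 11.4 FPKM in RANKL 4 h. It measured 85.1, 55.3 and 142 FPKM in RANKL 72 h, 21.7, 23.4 and 29.7 FPKM in LPS 4 h and 9.04, 10.8 and 14.7 FPKM in LPS 72 h. RANKL 72 h was highest and LPS 4 h next, each without overlap, and LPS 72 h overlapped control. *Jdp2* rose 7.90-fold in RANKL 72 h (log2 2.98 ± 0.27, adjusted p = 6.25e-06) and 2.24-fold in LPS 4 h (log2 1.16 ± 0.27, adjusted p = 0.00198). At 72 h of LPS the difference was 0.04 (95% interval -0.53 to 0.61), or -0.15 without replicate 3.

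*Batf* encodes a small subunit that pairs with Jun proteins and works with interferon regulatory factors in immune cells. It measured 16.8, 15.5 and 14.1 FPKM in M-CSF alone, 13.7, 13.7 and 10 FPKM in RANKL 4 h and 7.35, 6.96 and 6.25 FPKM in RANKL 72 h. With LPS it measured 94.3, 70.7 and 61.3 FPKM at 4 h and 46.3, 41.7 and 26.4 FPKM at 72 h. All RANKL libraries lay below control and all LPS libraries above it. *Batf* was 2.24-fold lower in RANKL 72 h (log2 -1.16 ± 0.21, adjusted p = 0.00115) and 4.79-fold higher in LPS 4 h (log2 2.26 ± 0.21, adjusted p = 1.14e-06). At 72 h of LPS it was 2.40-fold higher (log2 1.26 ± 0.21, adjusted p = 0.000459; 1.51 without replicate 3). In RANKL 4 h the difference of -0.32 ± 0.21 did not pass.

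*Atf3*, a stress-induced member that represses part of the cytokine response, measured 118, 113 and 135 FPKM in M-CSF alone, 175, 160 and 190 FPKM in RANKL 4 h and 40.3, 42.2 and 29.9 FPKM in RANKL 72 h. It measured 239, 187 and 261 FPKM in LPS 4 h and 78.3, 101 and 45.8 FPKM in LPS 72 h. Both 4 h groups lay above control and both 72 h groups below it. *Atf3* was 3.28-fold lower in RANKL 72 h (log2 -1.72 ± 0.23, adjusted p = 0.000176) and 1.86-fold higher in LPS 4 h (log2 0.90 ± 0.23, adjusted p = 0.00463). The fall in LPS 72 h (log2 -0.77 ± 0.23, adjusted p = 0.0198) was lost without replicate 3 of that group (-0.46, adjusted p = 0.0554) and without control replicate 3 (-0.70, adjusted p = 0.0648), and when only these 2 groups were fitted (adjusted p = 0.0714). In RANKL 4 h the difference of 0.52 ± 0.23 did not pass (adjusted p = 0.966).

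Counted over the family, a member was called when its fold change was above 1.5 or below 0.66 and its adjusted p was under 0.05 over all genes tested. In RANKL 4 h, 0 of 10 members were called by limma, where 0.119% of all genes were, and *Junb* alone had an unadjusted p under 0.05 with that fold (2.56% of all genes). Voom on the recovered fragments likewise called 0. In RANKL 72 h, 6 of 10 were called (4 higher, 2 lower) against 24.2% of all genes (16.6% higher, 7.54% lower). LPS 4 h had 9 of 10 (7 higher, 2 lower) against 48.1% (8.43% higher, 39.7% lower), and LPS 72 h 6 of 10 (5 higher, 1 lower) against 27.4% (13.0% higher, 14.4% lower). Without LPS 72 h replicate 3 the last count was 5 higher and 0 lower. Groups did not overlap for 3 members in RANKL 4 h (10.8% of all genes), 6 in RANKL 72 h (49.1%), 8 in LPS 4 h (66.8%) and 6 in LPS 72 h (44.1%). An exact two-sided permutation test of single members, 3 libraries against 3, cannot give a p below 0.1.

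As a description, the median log2 difference of the 10 members in LPS 4 h was 0.86 and that of all genes -0.52. With each library centred on its median gene, 1871 genes were called higher and 1529 lower in LPS 4 h, and the members stayed at 7 higher and 2 lower. *Fos* and *Jun* were then at -0.91 and -0.97 and *Junb* at 3.66. The member median in RANKL 72 h was 0.44 against 0.16 for all genes, and in LPS 72 h 0.60 against 0.08. Centring turned the RANKL 72 h calls over all genes from 1951 higher and 886 lower to 1167 and 1428, and LPS 72 h from 1522 and 1690 to 1212 and 1887. The members kept 4 higher and 2 lower in the former and 5 higher and 1 lower in the latter.

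**Figure D2:**
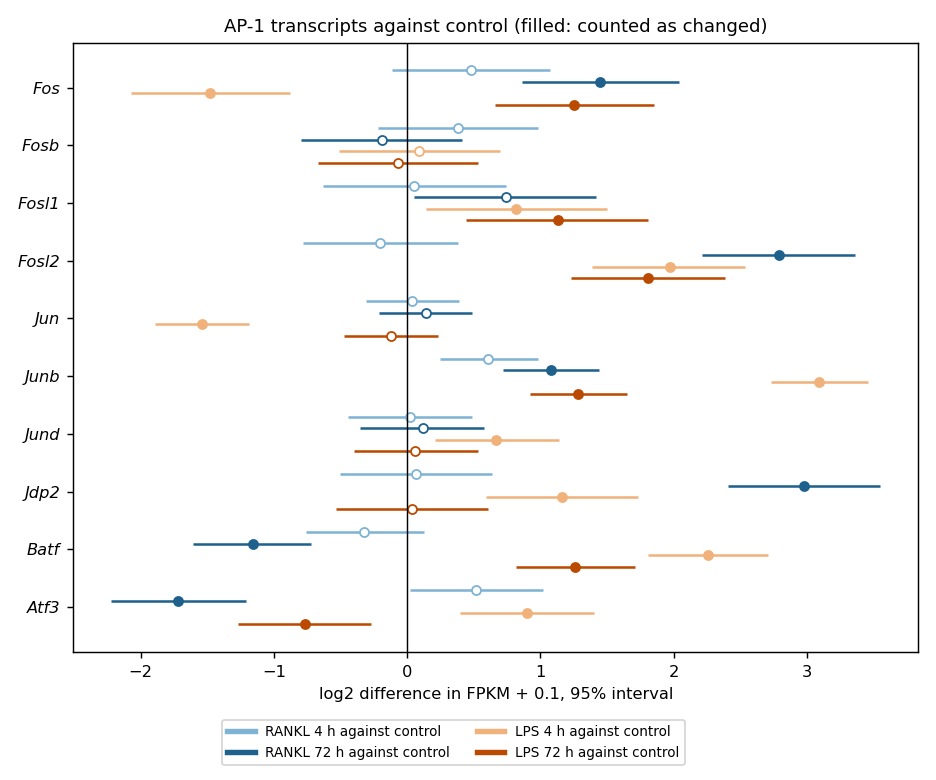
Log2 difference of each AP-1 transcript from control in the 4 stimulated groups (points) with the 95% interval of the limma fit (lines); filled points were called. *Junb* in LPS 4 h (3.09) and *Jdp2* in RANKL 72 h (2.98) lie furthest to the right, and *Atf3* in RANKL 72 h (-1.72) and *Jun* in LPS 4 h (-1.54) furthest to the left.

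Markers of other cells moved with the 72 h groups. Of 8 osteoclast markers 7 were higher in RANKL 72 h, with a summed level of 1680 to 5380 FPKM against 140 to 259 FPKM in control, where *Calcr* was listed at 0 in every library. Of 8 stromal markers 6 were higher (388 to 1820 FPKM against 139 to 307 FPKM), and 3 of 6 neutrophil, 4 of 5 B cell and 4 of 4 mast cell or basophil markers were lower. Within RANKL 72 h, *Jdp2* and *Fosl2* were highest in replicate 3 and lowest in replicate 2, as was the osteoclast sum (5380 and 1680 FPKM). *Fos* and *Junb*, the other members called higher there, were also highest in replicate 3 (117 and 116 FPKM) but lowest in replicate 1 (61.0 and 88.4 FPKM). The stromal sum was highest in replicate 1 (1820 FPKM) and lowest in replicate 3 (388 FPKM). In LPS 72 h all 6 neutrophil markers (114 to 973 FPKM against 3410 to 10300 FPKM), all 5 B cell markers and 3 of 4 mast cell or basophil markers were lower. The part of these cells in the AP-1 differences was not tested, and in bulk samples fewer cells of a type and less RNA per cell cannot be told apart.

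The make-up of each class is described next by shares of summed FPKM, with no test. Every Jun class member, *Fosl1* and *Jdp2* overlap exons of a neighbour. The shares, ratios and ranks that follow may thus include fragments of these neighbours. In control, *Fos* supplied 79.0% ± 4.31 (SD, n = 3) of the transcripts of the Fos class and *Fosl2* 17.0% ± 3.62. In RANKL 72 h the class sum was 144 ± 34.9 FPKM against 40.9 ± 5.60 FPKM in control, and *Fosl2* supplied 35.0% ± 11.8. In LPS 4 h the sum was 41.7 ± 3.19 FPKM, close to control, but *Fosl2* supplied 64.8% ± 7.17 and *Fos* 28.4% ± 7.69. The sum thus overlapped control while the leading member changed from *Fos* to *Fosl2* in all 3 libraries.

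In the Jun class, control held 42.1% ± 6.83 *Jun*, 33.9% ± 5.12 *Junb* and 24% ± 1.79 *Jund*. In LPS 4 h the class sum was 472 ± 108 FPKM against 136 ± 8.94 FPKM, with 84.4% ± 1.89 from *Junb* and 4.27% ± 0.952 from *Jun*. *Junb* over *Jun* was 0.834 ± 0.265 in control, 1.24 ± 0.342 in RANKL 4 h, 1.56 ± 0.210 in RANKL 72 h, 20.4 ± 4.08 in LPS 4 h and 2.15 ± 0.253 in LPS 72 h. *Batf* over *Jdp2*, a pair of neighbours on chromosome 12, was 1.4 ± 0.0659 in control, 0.0854 ± 0.0409 in RANKL 72 h, 3.14 ± 1.14 in LPS 4 h and 3.59 ± 1.68 in LPS 72 h. These small partners thus stood in opposite order in the RANKL 72 h and LPS 72 h libraries.

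**Figure D3:**
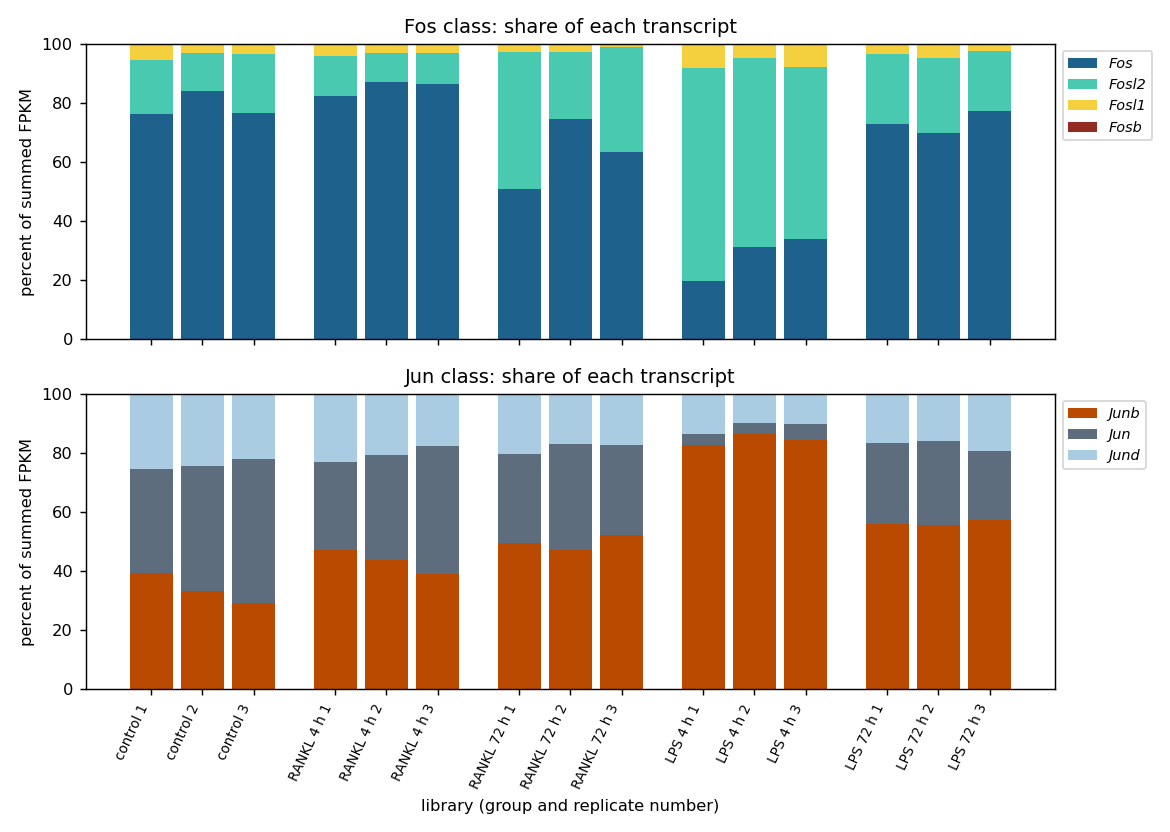
Percent of summed FPKM from each transcript of the Fos class (top) and the Jun class (bottom) in each of the 15 libraries. In the LPS 4 h libraries *Fosl2* takes 58.1% to 72.4% of the Fos class and *Junb* 82.6% to 86.3% of the Jun class; *Fosb* is too low to be seen.

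Ranked by mean level within a group, *Atf3* led in control (122 ± 11.7 FPKM) and RANKL 4 h (175 ± 14.9 FPKM), above the range of every other member. *Jun* and *Junb* followed in control with ranges that overlapped, then *Jund* and *Fos*, which also overlapped. After 72 h of RANKL *Junb* (97.7 ± 15.8 FPKM), *Jdp2* (94.1 ± 44.0 FPKM) and *Fos* (91.1 ± 28.1 FPKM) led with overlapping ranges, and *Atf3* was sixth (37.4 ± 6.64 FPKM). After 4 h of LPS *Junb* (398 ± 83.9 FPKM), *Atf3* (229 ± 38.0 FPKM) and *Batf* (75.4 ± 17.0 FPKM) led without overlap between the first 3. At LPS 72 h *Junb* (112 ± 4.21 FPKM) stood above *Fos* (77.9 ± 16.5 FPKM) and *Atf3* (74.9 ± 27.6 FPKM), which overlapped. In the 2 libraries other than replicate 3 *Atf3* (78.3 and 101 FPKM) and *Fos* (79.4 and 60.7 FPKM) also overlapped, with *Atf3* the higher on average. *Fosl1* and *Fosb* were the lowest in every group, in that order.

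RANKL and LPS were next compared directly at the same time. The control libraries do not enter these differences, but they share in the estimate of error. At 4 h, 7 members differed (2 higher with RANKL, 5 lower), against 50.0% of all genes (41.0% higher, 8.98% lower). Centring turned the calls over all genes from 4818 higher and 1054 lower to 1580 and 1905, and the members to 2 higher and 7 lower. *Fos* and *Jun* were higher with RANKL (log2 1.95 ± 0.28, adjusted p = 4.57e-05, and 1.57 ± 0.16, adjusted p = 3.22e-06). *Batf* (-2.58 ± 0.21, adjusted p = 3.39e-07), *Junb* (-2.48 ± 0.17, adjusted p = 8.18e-08), *Fosl2* (-2.17 ± 0.27, adjusted p = 1.59e-05), *Jdp2* (-1.09 ± 0.27, adjusted p = 0.00302) and *Jund* (-0.65 ± 0.22, adjusted p = 0.0188) were lower. The *Jund* call was lost without LPS 4 h replicate 1 (-0.33) or RANKL 4 h replicate 3 (-0.54), and when only these 2 groups were fitted (adjusted p = 0.0742). *Fosl1* (-0.77 ± 0.32, adjusted p = 0.0504) lay at the limit and passed with centred libraries (-1.33, adjusted p = 0.00423) and without LPS 4 h replicate 2 (-1.07, adjusted p = 0.0125), as well as without RANKL 72 h replicate 2 or 3 or LPS 72 h replicate 3, which left it at -0.77 and changed only the adjusted p (0.0493, 0.026 and 0.0469). *Atf3* (-0.38, 95% interval -0.88 to 0.12) did not pass, but did when libraries were centred (-0.95, adjusted p = 0.00322).

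At 72 h, 4 members differed between RANKL and LPS, against 36.1% of all genes (23.3% higher with RANKL, 12.8% lower). Centring turned the calls over all genes from 2739 higher and 1506 lower to 2237 and 2045, and left the members at 2 higher and 2 lower. *Jdp2* was 7.68-fold (log2 2.94 ± 0.27, adjusted p = 1.73e-06) and *Fosl2* 1.96-fold (log2 0.97 ± 0.27, adjusted p = 0.00939) higher with RANKL. *Batf* was 5.36-fold (log2 -2.42 ± 0.21, adjusted p = 1.23e-06) and *Atf3* 1.92-fold (log2 -0.94 ± 0.23, adjusted p = 0.00486) lower. Without LPS 72 h replicate 3 these 4 differences were 3.13, 0.99, -2.67 and -1.26, and each still passed. *Junb* (-0.20, 95% interval -0.57 to 0.16) and *Jun* (0.27, -0.08 to 0.62) did not pass, and neither did *Jund* (0.05, -0.41 to 0.52). *Fosl2* thus stood lower with RANKL than with LPS at 4 h and higher at 72 h, and so did *Jdp2*, whereas *Batf* was lower with RANKL at both times.

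**Figure D4:**
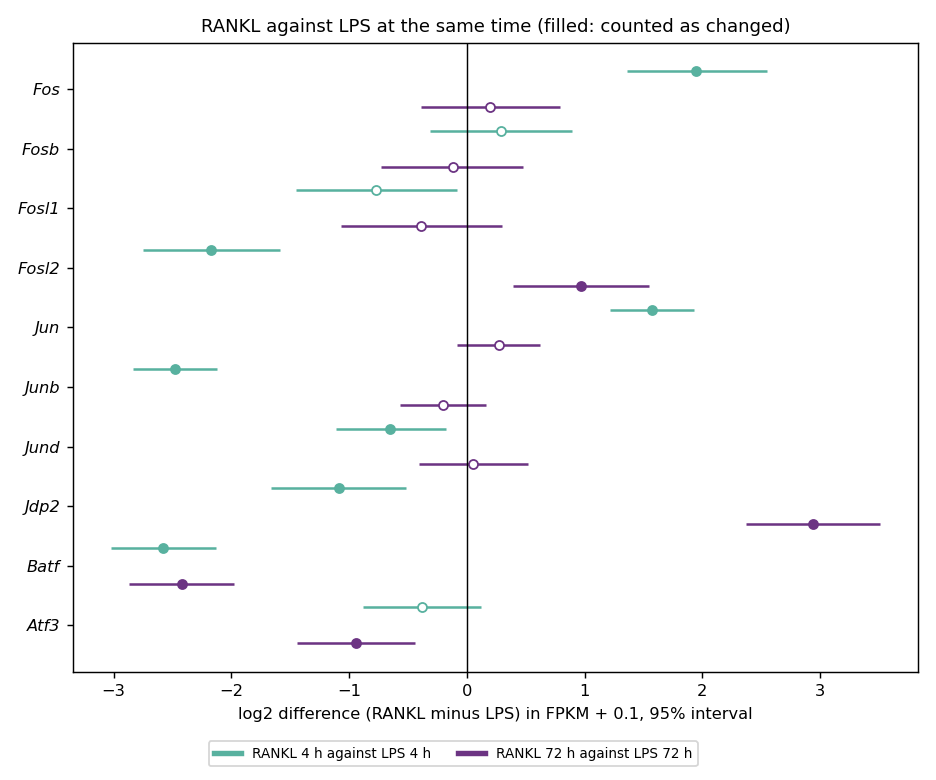
Log2 difference (RANKL minus LPS) of each AP-1 transcript at 4 h and at 72 h (points) with the 95% interval of the limma fit (lines); filled points were called. *Fosl2* and *Jdp2* lie left of 0 at 4 h (-2.17 and -1.09) and right of 0 at 72 h (0.97 and 2.94), and *Batf* lies at -2.58 and -2.42.

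Groups given the same stimulus for 4 h and 72 h may also differ in time in culture. With RANKL, 5 members differed between them, against 23.3% of all genes (16.4% higher at 72 h, 6.83% lower). Centring turned the calls over all genes from 1930 higher and 802 lower to 1141 and 1351. *Fosl2* (log2 2.99 ± 0.27, adjusted p = 8.50e-06), *Jdp2* (2.91 ± 0.27, adjusted p = 9.35e-06) and *Fos* (0.97 ± 0.28, adjusted p = 0.0177) were higher at 72 h, and *Atf3* (-2.23 ± 0.23, adjusted p = 2.56e-05) and *Batf* (-0.84 ± 0.21, adjusted p = 0.00867) lower. The *Fos* call was lost with centred libraries (0.76, adjusted p = 0.0589) and without RANKL 4 h replicate 1 (0.70), RANKL 72 h replicate 2 (0.91) or RANKL 72 h replicate 3 (0.77), and when only these 2 groups were fitted (adjusted p = 0.0519). Centring made *Fosb* pass (-0.79, adjusted p = 0.0328), so that 2 members were higher and 3 lower. *Fosl1* passed without RANKL 72 h replicate 3 (1.02, adjusted p = 0.0293). *Junb* did not overlap between the times but did not pass (0.47 ± 0.17, adjusted p = 0.0528), except with equal sums (0.59, adjusted p = 0.00891).

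With LPS, 7 members differed between 4 h and 72 h, against 58.1% of all genes (44.2% higher at 72 h, 13.9% lower). Centring turned the calls over all genes from 5186 higher and 1631 lower to 2209 and 3224, and the members to 2 higher and 7 lower. *Fos* was 6.64-fold (log2 2.73 ± 0.28, adjusted p = 1.85e-06) and *Jun* 2.66-fold (log2 1.41 ± 0.16, adjusted p = 5.50e-06) higher at 72 h. *Junb* (-1.81 ± 0.17, adjusted p = 9.81e-07), *Atf3* (-1.67 ± 0.23, adjusted p = 2.90e-05), *Jdp2* (-1.12 ± 0.27, adjusted p = 0.00198), *Batf* (-1.0 ± 0.21, adjusted p = 0.000755) and *Jund* (-0.61 ± 0.22, adjusted p = 0.0232) were lower. Without LPS 72 h replicate 3, *Fos* and *Jun* were at 2.59 and 1.5 and the other 5 at -1.82, -1.35, -1.31, -0.75 and -0.69, and each still passed. *Jund* was lost without LPS 4 h replicate 1 (-0.29, adjusted p = 0.115) and without LPS 72 h replicate 1 (-0.60, adjusted p = 0.0537) or 2 (-0.53, adjusted p = 0.0813). It was also lost when only these 2 groups were fitted (adjusted p = 0.0742), and at a pseudocount of 1 (-0.59), with equal sums (-0.56) or with voom (-0.60) it fell short of the fold limit. *Fosl2* did not differ beyond its error (-0.15, 95% interval -0.73 to 0.43), although with centred libraries it was lower (-0.80, adjusted p = 0.0192), as was *Fosb* (-0.81).

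The wider pathway was described by 6 lists. Counts with centred libraries are printed for some of them, and a count printed without one may also change on centring. Over all genes tested, 16.6% were called higher and 7.54% lower in RANKL 72 h, and 8.43% higher and 39.7% lower in LPS 4 h. Among 14 other basic leucine zipper genes, 1 rose and 6 fell in RANKL 72 h, and 5 rose and 6 fell in LPS 4 h, the latter 6 and 1 with centred libraries. The share that fell in LPS 4 h was near that of all genes. *Maff*, a small MAF protein without an activation domain, rose in both (log2 1.22 ± 0.33 and 4.11 ± 0.33). *Batf2*, a relative of *Batf*, rose in LPS 4 h (2.91 ± 0.29). *Batf3*, which supports dendritic cells, fell in LPS 4 h (-1.42 ± 0.44) and also in RANKL 72 h (-1.38 ± 0.44). *Ddit3*, a stress factor, fell in RANKL 72 h (-1.97 ± 0.29).

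Upstream, among 24 genes of the MAP kinase cascade and the factors that act on the *Fos* and *Jun* promoters, 4 rose and 1 fell in RANKL 72 h (1 and 1 centred), and 3 rose and 4 fell in LPS 4 h (8 and 3 centred). The share that rose in RANKL 72 h was near the 16.6% of all genes, and the share that fell in LPS 4 h was below the 39.7% of all genes. *Map3k8*, the kinase that links NF-κB signalling to ERK, fell in RANKL 72 h (-1.03 ± 0.20) and rose in LPS 4 h (2.44 ± 0.20). *Map2k6*, an activator of p38 kinases, rose in RANKL 72 h (2.02 ± 0.23), and *Mef2c* rose in RANKL 72 h (0.92 ± 0.27) and fell in LPS 4 h (-2.05 ± 0.27). Of 12 MAP kinase phosphatases and genes of JUN turnover, 1 rose in RANKL 72 h (*Dusp4*, 1.74 ± 0.61; 0 rose and 1 fell when centred). With LPS for 4 h 4 rose and 3 fell (5 and 2 centred), the latter also a share below that of all genes. *Dusp2* (5.14 ± 0.27) and *Dusp16* (3.59 ± 0.19) led the rises there, and *Dusp6* (-2.74 ± 0.25) and *Dusp7* (-2.13 ± 0.27), which act on ERK, the falls. Of 12 other immediate-early genes, 6 rose and 1 fell in LPS 4 h (9 and 0 centred), with *Egr1* at 3.36 ± 0.29, *Nr4a3* at 2.25 ± 0.55 and *Egr2* at -1.42 ± 0.37. After 72 h of RANKL 3 rose, among them *Egr1* (2.16 ± 0.29) and *Klf4* (1.30 ± 0.34), and 2 fell.

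Downstream, 9 of 10 osteoclast genes described as targets of FOS with NFATc1 rose in RANKL 72 h (8 centred), and 0 fell. All 8 osteoclast markers counted earlier are among these 10, so this count largely repeats that one. Whether FOS acted on these genes here was not tested. *Oscar*, an osteoclast receptor, was at 40.8 ± 24.5 FPKM against 0.0615 ± 0.0556 FPKM in control, and *Dcstamp*, a fusion protein, at 41.8 ± 25.7 against 0.258 ± 0.237 FPKM. In LPS 4 h 1 of the 10 rose (*Acp5*, 1.16 ± 0.43) and 2 fell (*Mmp9*, -2.08 ± 0.65, and *Nfatc1*, -1.19 ± 0.26), and 1 and 0 when centred. Of 14 AP-1 targets described outside osteoclasts, 0 rose and 5 fell in RANKL 72 h, led by the chemokine *Ccl2* (-3.72 ± 0.34) and the collagenase *Mmp13* (-2.51 ± 0.33). After 4 h of LPS 8 rose, led by the cytokines *Il6* (8.74 ± 0.50) and *Il1b* (8.25 ± 0.48), and 3 fell, led by *Ccnd1* (-2.99 ± 0.57). In RANKL 4 h 0 genes of the 6 lists were called.

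**Figure D5:**
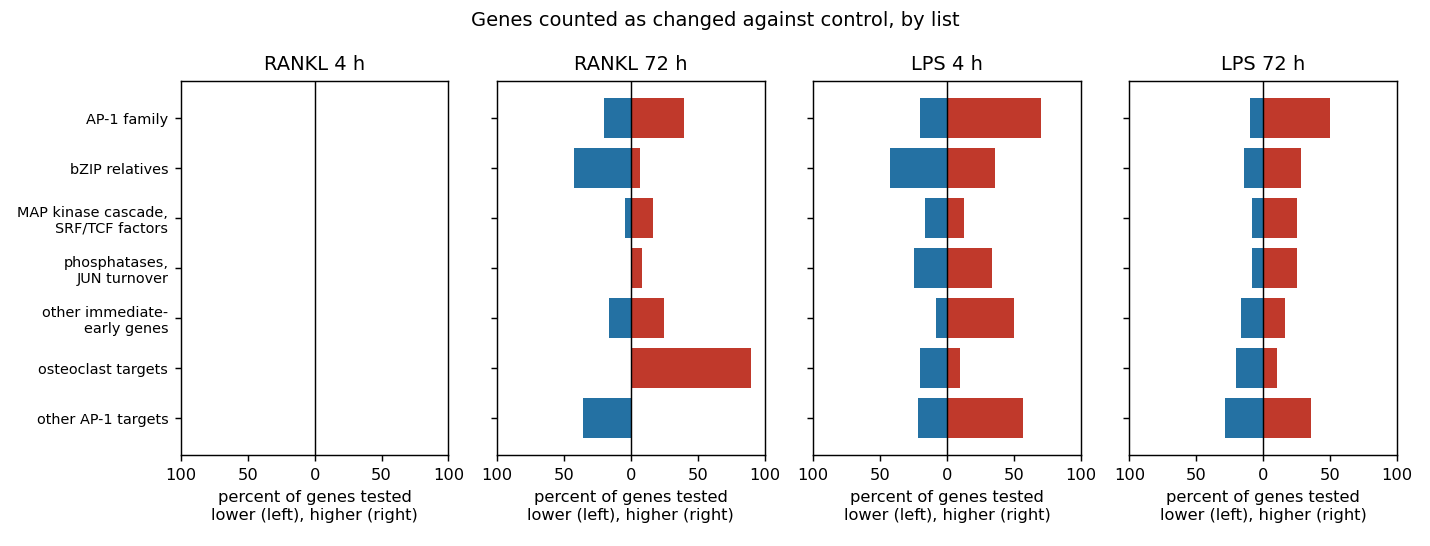
Percent of the genes tested in the AP-1 family and in 6 related lists that were called higher (right) or lower (left) than control in each stimulated group; both directions are measured from 0. In RANKL 72 h the osteoclast targets stand at 9 of 10 higher, and in LPS 4 h the other AP-1 targets at 8 of 14 higher and 3 lower; the RANKL 4 h panel is empty because 0 genes of these lists were called.

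The genes most like each member, by Pearson's r of log2 FPKM over the 15 libraries among 9477 genes averaging 1 FPKM or more, are given as a description, since the libraries share their groups. *Junb* was most like *Nfkbia* (0.988) and *Bcl3* (0.984), both of the IκB family. *Batf* was most like *Il1a* (0.985) and *Il12a* (0.971), and *Jdp2* most like *Myo1d* (0.960) and *Car2* (0.952), a carbonic anhydrase of osteoclasts. *Jun* was closest to *Poli* and *Ctdp1* (both 0.982), *Fos* to *Tm9sf1* (0.969) and *Mink1* (0.968), *Fosl2* to *Ktn1* (0.955) and *Slc2a1* (0.893), and *Atf3* to *Rap2b* (0.949) and *Ptafr* (0.922). *Jund* was closest to *Ier2* (0.941), and *Fosl1* had no gene above 0.858 (*Arrdc4*).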

How the data were processed

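RNA-seq of BMDMs was analysed in 15 libraries, 3 in each of 5 groups taken from the sample labels. The authors deposited FPKM values per gene and library, estimated with StringTie and Ballgown according to the methods. The submitters' processing notes name StringTie, GRCm38 (p4) and mm10, and the aligner was not given in the sources used here. Of 20089 genes, 4453 were at 0 in every library, and genes after an incomplete entry for *Ttk*, in alphabetical order, were not analysed here. FPKM steps gave back whole fragments (within 0.01) for all 14485 genes above 0 in at least 3 libraries. Since FPKM are not counts, log2(FPKM + 0.1) was fitted with limma 3.58.1 (R 4.3.3, trend) over all 5 groups for 11743 genes averaging 0.1 FPKM or more. Fold changes are on that scale, which understates changes of low genes. The fold limits follow the study, and p-values were Benjamini-Hochberg adjusted over all genes tested. Alternatives were the pseudocount, the filter, the scaling, the groups in the fit, a replicate block, the trend, the unadjusted p, leaving out each library and, added after seeing the data, voom on recovered fragments and the block without LPS 72 h replicate 3. The members and lists were chosen with earlier results of these data known. All members were named. List genes were named from the 2 largest and 2 smallest called changes of each list in RANKL 72 h and LPS 4 h, of which not all are printed and 1 is not reported here. Replicate numbers come from the labels. Same-numbered libraries deviated together for control with RANKL 4 h (r = 0.84, 0.71 and 0.74), RANKL 72 h (0.32, 0.14 and 0.18) and LPS 4 h (0.62, 0.62 and 0.44) over 9486 genes, but not for comparisons with LPS 72 h, where at least 1 pair was below 0. The fit was tested on simulated data. Python 3.11.15, numpy 2.4.6, pandas 2.3.3 and matplotlib 3.10.9 were used otherwise.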

Additional observations from a re-analysis of the deposited data

Results flagged for a closer look

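Direct comparisons of the stimulated groups passed the test for 23 pairs of member and contrast. Between the stimuli at 4 h (RANKL minus LPS), the log2 differences were 1.95 for *Fos*, -2.17 for *Fosl2*, 1.57 for *Jun*, -2.48 for *Junb*, -0.65 for *Jund*, -1.09 for *Jdp2* and -2.58 for *Batf*. At 72 h they were 0.97 for *Fosl2*, 2.94 for *Jdp2*, -2.42 for *Batf* and -0.94 for *Atf3*. Since both responses are measured from the same control, each of these is also the difference between the responses to RANKL and to LPS.

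Between times (72 h minus 4 h), the RANKL groups differed by 0.97 for *Fos*, 2.99 for *Fosl2*, 2.91 for *Jdp2*, -0.84 for *Batf* and -2.23 for *Atf3*. The LPS groups differed by 2.73 for *Fos*, 1.41 for *Jun*, -1.81 for *Junb*, -0.61 for *Jund*, -1.12 for *Jdp2*, -1.0 for *Batf* and -1.67 for *Atf3*. Stimulus and time in culture cannot be told apart in these differences between times. The *Jund* differences rest on LPS 4 h replicate 1, without which they were -0.33 between stimuli and -0.29 between times and did not pass. *Fos* in RANKL was lost without RANKL 4 h replicate 1 (0.70, adjusted p = 0.0862), RANKL 72 h replicate 2 (0.91, adjusted p = 0.0562) or RANKL 72 h replicate 3 (0.77, adjusted p = 0.0775).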

How the results depend on the processing

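Over the alternatives, 2102 of 2152 pairs of member difference and setting stayed on the same side of the threshold, 32 lost and 18 gained a call, and 0 called differences changed sign. This total includes settings that leave out a library outside the comparison, where the log2 difference cannot change. *Fosl1* kept its side in 18 of 27 alternatives between the stimuli at 4 h, and in 19 of 27 in LPS 4 h against control. The count of members called changed by more than 1.5 times in 1 case: with unadjusted p-values RANKL 4 h against control had 1 member (*Junb*) in place of 0. Leaving out 1 library at a time gave 0 to 0 members in RANKL 4 h, 6 to 7 in RANKL 72 h, 7 to 9 in LPS 4 h and 5 to 6 in LPS 72 h against control, 6 to 8 and 4 to 4 between the stimuli at 4 h and 72 h, 4 to 5 between the RANKL times and 6 to 7 between the LPS times. The replicate block changed 0 of 80 calls. Under this pairing LPS 4 h kept 9 members, RANKL 72 h and LPS 72 h 6 each and RANKL 4 h 0. The block also took in LPS 72 h, whose libraries did not deviate together with those of the same number. It was thus not a paired test of the 4 h groups alone. The fit of only the groups compared lost 6 calls and gained 1, and centred libraries lost 1 and gained 5. *Fosl1*, with 40 to 138 fragments per library, and *Fosb*, with 5 to 22, rest on few fragments, and the part of depth in their errors was not tested. *Fosb* was not tested at a mean of at least 1 FPKM.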
